A study of Rattus norvegicus with 9 samples.

Results

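The genes described here are 9 genes that mark relay neurons of the thalamus, the glutamatergic cells that pass sensory and motor signals on to the cortex: Tcf7l2, Lef1, Gbx2, Rora, Prkcd, Slc17a6, Amotl1, Rgs16 and Zic1. They were chosen by name, and each was followed through every probe set that the platform annotation assigns to that gene alone. All 9 genes were found, on 17 probe sets, out of 14217 genes on 31042 rat probe sets. RNA came from the thalamus of male Wistar rats that were 3 weeks old at the start, and each sample is labelled as 5 weeks old. In the chow group (4 arrays) the rats ate solid feed for 8 days, and in the powder group (5 arrays) they ate powdered feed for those 8 days. All rats, chow ones included, had first eaten powder for 2 days, so the comparison asks what a return to food that must be chewed does to thalamic RNA shortly after weaning. The labels do not say how the thalamus was dissected or which animal gave which sample. The p-values therefore measure the spread between these samples, some of which may be technical. In whole tissue, fewer relay neurons and less RNA in each relay neuron cannot be told apart.

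As background, relay neurons are specified after their last division by a small set of transcription factors. In mice, Gbx2, a homeobox factor, and Tcf7l2, which partners with beta-catenin at Wnt target genes, are needed for thalamic neurons to take on their identity and send axons to the cortex. Lef1 belongs to the same TCF/LEF family, and Rora is a nuclear receptor known from sensory thalamus and from Purkinje cells. Slc17a6 encodes VGLUT2, the transporter that loads glutamate into relay neuron vesicles, and Prkcd encodes protein kinase C delta. Rgs16 speeds the shut-off of Gi and Gq signals, Amotl1 is an angiomotin that binds YAP and cell junctions, and Zic1 is a zinc finger factor. Several of these genes are also used outside relay neurons: Tcf7l2 in maturing oligodendrocytes and habenula, Lef1 in brain endothelium, Slc17a6 in hypothalamus and Zic1 in cerebellar granule cells and meninges.

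Promoter windows of 8 of the 9 genes, from 250 bases before to 50 bases after the gene start, were found in the RefSeq table of build GRCr8, and Zic1 was not among them. These genes had 12 windows together, so at least 1 gene had several. Each window was searched on both strands for 4 motifs, none of which overlaps another in the member windows. The TCF/LEF core CTTTGAT was present in the window of 1 gene, Slc17a6, and in 3.63% of all 33469 windows of the same length. Its variant CTTTGAA was in 0 of the 8 genes' windows and in 1806 of all windows. The ROR element as AAGGTCA was in 0 of the 8 and in 4.61% of all windows, and as TAGGTCA in 0 of the 8 and in 2.63%. A match is a run of letters and not a measured binding site. The windows of Slc17a6 (chr1:110348197-110348496, plus strand) and Tcf7l2 (chr1:264791085-264791384, plus strand) are shown because Slc17a6 is the transmitter gene of these cells and Tcf7l2 the TCF/LEF gene with the most probe sets. Capitals mark the CTTTGAT match, which begins 25 bases before the gene start, and the Tcf7l2 window holds none of the 4 motifs.
Slc17a6: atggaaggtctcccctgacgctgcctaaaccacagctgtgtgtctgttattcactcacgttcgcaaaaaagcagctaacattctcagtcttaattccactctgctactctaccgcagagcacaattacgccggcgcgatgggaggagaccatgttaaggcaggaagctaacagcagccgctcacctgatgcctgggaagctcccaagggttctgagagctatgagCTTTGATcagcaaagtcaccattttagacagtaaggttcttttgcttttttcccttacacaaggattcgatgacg
Tcf7l2: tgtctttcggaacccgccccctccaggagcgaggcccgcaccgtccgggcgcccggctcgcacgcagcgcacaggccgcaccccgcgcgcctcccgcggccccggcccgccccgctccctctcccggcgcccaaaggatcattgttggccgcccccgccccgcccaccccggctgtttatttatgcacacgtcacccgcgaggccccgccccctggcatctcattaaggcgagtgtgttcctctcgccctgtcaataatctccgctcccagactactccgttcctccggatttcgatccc

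Values are the authors' log2 expression values, 1 for each probe set and array. Of the 17 probe sets, 13 varied between arrays by 0.58 to 0.92 log2 units. The other 4, of Tcf7l2 (1392592_at), Gbx2 (1394337_at), Rora (1380478_at) and Amotl1 (1376993_at), spanned at most 0.00068 units over the 9 arrays, so they show almost no size of change. That narrow range is a property of the deposited table, in which 26193 of 31042 probe sets spanned under 0.01. None of those 4 was called, with limma adjusted p between 0.35 and 0.693, and the rest of the account is about the 13, which carry all 9 genes. No detection calls were used here, so the values do not show whether any of these genes was above background.

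The first feature of these genes is a single array. Chow 1 was the lowest of the 4 chow arrays on all 13 probe sets, by 0.37 to 0.66 log2 units below the mean of the other 3 chow arrays (median 0.50). It was the lowest of all 9 arrays on 12 of the 13 (92.3%), the exception being Zic1. Among all 4849 probe sets spanning at least 0.01, chow 1 was the lowest of 9 on 36.8% and the highest on 20.5%. Averaged over the 13 probe sets, the deviation from the powder mean was -0.49 on chow 1, 0.03 on chow 2, 0.11 on chow 3 and -0.10 on chow 4, against -0.05 to 0.05 on the powder arrays. The chow SD was larger than the powder SD for all 13, with medians of 0.28 under chow and 0.07 under powder, and the median chow SD was 0.12 without chow 1. Over all probe sets spanning at least 0.01 those median SDs were 0.10 under chow and 0.06 under powder. Each diet result of these genes is given with and without chow 1. That array was singled out from these same values, and leaving out the lowest chow array raises every chow mean. Higher calls made only without chow 1 are therefore partly set by that choice.

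**Figure D1:**
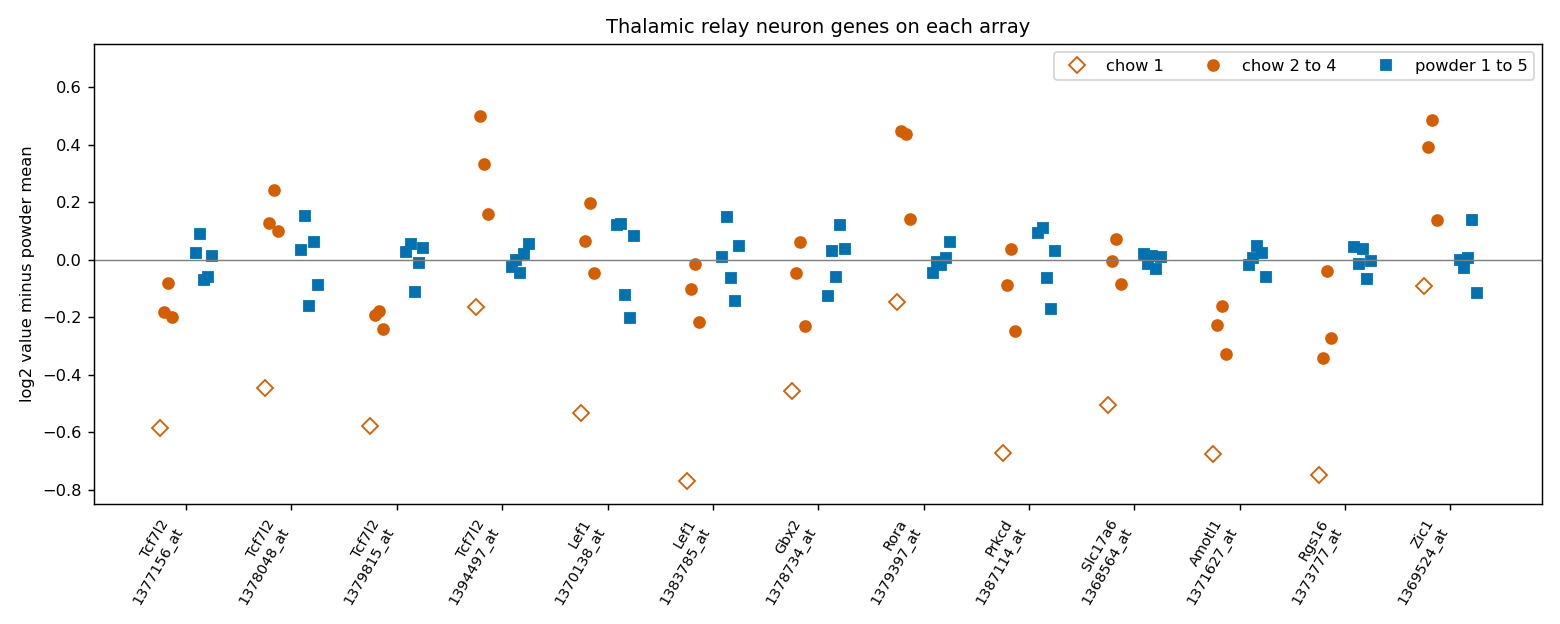
Log2 value minus the mean of the powder arrays (vertical axis, log2 units) for the 13 probe sets of the 9 genes (horizontal axis), 1 symbol per array, chow left of powder. The open diamond, chow 1, is the lowest symbol on 12 of the 13 probe sets, and the powder squares lie close to 0.

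Slc17a6, the transmitter gene, is given first. Its probe set, 1368564_at, was at 11.16, 11.66, 11.74 and 11.58 on chow arrays 1 to 4, against 11.69, 11.65, 11.68, 11.64 and 11.68 on powder arrays 1 to 5. The powder arrays lay between 11.64 and 11.69, and chow 1 was far below every other array while the other 3 chow arrays lay around them. The difference was -0.13 ± 0.11 (chow minus powder, SE) with all arrays (limma adjusted p = 0.371) and -0.0057 ± 0.034 without chow 1 (adjusted p = 0.908). The gene whose promoter window is shown above was not called in either fit, and without chow 1 the estimate lay within its SE of 0.

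Lists of markers of other cells moved on chow 1 too, some up and some down. The mean level of the 9 probe sets of striatal neuron genes (7 of 8 genes, all 7 with a probe set that varied) was 8.69 on chow 1 and 7.77 to 7.87 on the other chow arrays, against 7.70 to 7.79 on the powder arrays. For 12 probe sets of inhibitory and reticular nucleus genes (11 of 14 genes) it was 8.96 on chow 1 and 8.32 to 8.61 on the other chow arrays, against 8.20 to 8.57 on the powder arrays. Astrocyte genes (6 probe sets of 4 of 9 genes) were at 10.3 on chow 1 and 9.98 to 10.01 on the others, against 9.81 to 9.94. Hypothalamic genes (6 probe sets of 6 of 11 genes) were at 9.34 on chow 1, but also at 9.40 on chow 4, 9.16 on powder 3 and 9.42 on powder 4, and at 7.68 to 8.47 on the remaining arrays. Habenula genes (4 probe sets of 3 of 9 genes) averaged 8.20 on chow 1 and 7.71 to 7.92 on every other array, but did not move together. On chow 1, Lmo3 was the highest of the 9 arrays (8.30 on 1370430_at and 8.79 on 1385285_at). Chrna3 was the lowest there (7.28 on 1369001_at). None of the probe sets that varied in the striatal, inhibitory, hypothalamic and habenula lists was called between the diets (limma, all arrays). Of all probe sets spanning at least 0.01, 54.9% were called. At unadjusted p under 0.05, which at least that 54.9% also passed, there were 1 in the inhibitory list and 1 in the hypothalamic list, both higher under chow. The first was Gad2, which makes GABA (1369462_at, 0.60 ± 0.20, adjusted p = 0.0518), and without chow 1 it was called (0.39, adjusted p = 0.0405). Gad1 was not called on 1370760_a_at (0.45, adjusted p = 0.108) or 1368344_at (0.08, adjusted p = 0.683). Without chow 1 these were at 0.27 and -0.06 (adjusted p = 0.192 and 0.572). The median difference of the 12 inhibitory probe sets was 0.15 with all arrays and 0.03 without chow 1. Other lists were lowest of the 9 arrays on chow 1, as the relay genes were. Their mean deviation from the powder mean there was -0.34 for endothelial genes (5 probe sets), -0.29 for cerebellar genes (2), -0.21 for blood genes (2), -0.15 for pericyte and smooth muscle genes (3) and -0.10 for oligodendrocyte genes (12). The list of other thalamic transcription factors, at -0.28 over 22 probe sets, was also lowest on chow 1. The part of these other cells in the relay gene values was not tested.

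**Figure D2:**
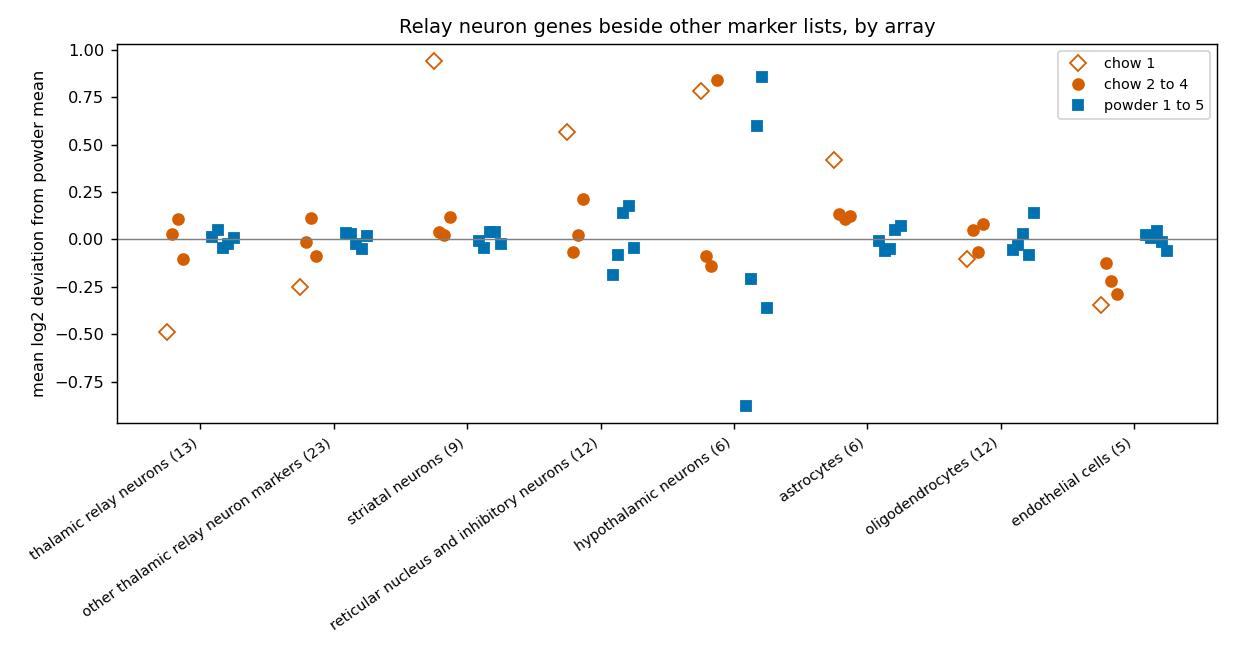
Mean log2 deviation from the powder mean (vertical axis) over the varying probe sets of each marker list (horizontal axis, number of probe sets in brackets), 1 symbol per array, chow left of powder. Chow 1, the open diamond, is at -0.49 for the relay neuron genes and at 0.94 for the striatal genes, while the other arrays stay between -0.10 and 0.12 in both lists.

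Other relay neuron genes, from a list of 28 such as the T-type calcium channel gene Cacna1g and the adhesion gene Ntng1, gave a smaller version of the chow 1 value. Their 23 varying probe sets, of 15 genes, averaged 9.49 on chow 1 and 9.66 to 9.86 on the other chow arrays, against 9.69 to 9.77 on the powder arrays. None of the 23 was called by limma, beside 54.9% of all probe sets spanning at least 0.01, with 1 higher and 3 lower at unadjusted p under 0.05. The smallest p-values were those of Vamp1, a vesicle fusion protein (1370556_at, 0.20 ± 0.073, adjusted p = 0.0675), and Adarb1, an RNA editing enzyme (1398370_at, -0.22 ± 0.081, adjusted p = 0.0732). Their second varying probe sets were at 0.02 for Vamp1 (1373510_at, adjusted p = 0.848) and, in the opposite direction, at 0.23 for Adarb1 (1368933_at, adjusted p = 0.198; 0.34 without chow 1, adjusted p = 0.0574). The median difference of the 23 was -0.10 with all arrays and -0.03 without chow 1, beside -0.11 and -0.09 for all probe sets spanning at least 0.01.

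Between the diets, 2 of the 17 probe sets were lower under chow and 0 were higher at a limma adjusted p under 0.05. At unadjusted p under 0.05, 4 were lower and 0 higher. The share of all probe sets at that limit was not counted, but it is at least the 34.6% called below. At an adjusted p under 0.1 the counts were also 4 and 0, beside 6763 lower and 7974 higher of all 31042. Of all rat probe sets, 34.6% were called at an adjusted p under 0.05 (16.7% lower and 17.9% higher under chow). Of those spanning at least 0.01, 54.9% were called (38.8% lower and 16.1% higher), against 2 of the 13 here (15.4%). The median difference of the 13 was -0.17, beside -0.11 for all probe sets of that kind. Without chow 1, 5 of the 13 were called (38.5%), 3 higher and 2 lower, where 26.1% of all rat probe sets and 48.1% of those spanning at least 0.01 were called (12.9% higher and 35.2% lower). The chow and powder arrays did not overlap for 3 of the 13 with all arrays and for 5 without chow 1, where 50.0% and 53.9% of all such probe sets did not. The median of the 13 without chow 1 was -0.07, beside -0.09 for all such probe sets. Whether the relay genes differ from the table in how often they were called was not tested.

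Amotl1 was the clearest of the lower genes. Probe set 1371627_at was at 8.86, 9.31, 9.38 and 9.21 on chow arrays 1 to 4, against 9.52, 9.55, 9.59, 9.56 and 9.48 on powder arrays 1 to 5. Every chow array lay below every powder array. The chow mean was 9.19 ± 0.23 (SD, n = 4) and the powder mean 9.54 ± 0.042 (SD, n = 5), a fall to 0.786-fold (-0.35 ± 0.10, limma adjusted p = 0.0336). Without chow 1 the difference was smaller, -0.24 ± 0.042, and its adjusted p was 0.0141. The call was lost without chow 4 or any 1 of the 5 powder arrays (adjusted p from 0.0546 to 0.0684).

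Rgs16 had the same direction without passing the test. Its varying probe set, 1373777_at, was at 9.37, 9.77, 10.08 and 9.84 on chow arrays 1 to 4, against 10.16, 10.10, 10.15, 10.05 and 10.11 on powder arrays 1 to 5. Chow 3 lay inside the powder range and the other 3 chow arrays below it. The difference was -0.35 ± 0.13 (adjusted p = 0.0675), and -0.22 ± 0.069 without chow 1 (adjusted p = 0.0612). Without chow 3 it was called (-0.45, adjusted p = 0.0257).

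Tcf7l2 was measured by 4 varying probe sets, and these did not move together. The probe set 1379815_at was at 7.58, 7.96, 7.97 and 7.91 on chow arrays 1 to 4, against 8.18, 8.21, 8.04, 8.14 and 8.19 on powder arrays 1 to 5. No chow array reached the lowest powder array, and the fall to 0.814-fold was called (-0.30 ± 0.087, adjusted p = 0.0354; -0.20 ± 0.041 and adjusted p = 0.0193 without chow 1). That call was lost without chow 4, powder 1, powder 2, powder 4 or powder 5 (adjusted p from 0.0567 to 0.0727). A second probe set, 1377156_at, ran in parallel at 11.47, 11.88, 11.98 and 11.86 under chow, against 12.08, 12.15, 11.99, 12.00 and 12.07 under powder. Its groups did not overlap either, and it was not called (-0.26 ± 0.10, adjusted p = 0.0779; -0.15 ± 0.046 and adjusted p = 0.0532 without chow 1).

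The other pair of Tcf7l2 probe sets did not share that direction. On chow arrays 1 to 4, 1394497_at was at 8.81, 9.47, 9.30 and 9.13, against 8.95, 8.97, 8.93, 8.99 and 9.03 on powder arrays 1 to 5. Chow 1 was the lowest of the 9 arrays and the remaining 3 chow arrays were the highest. The difference was 0.21 ± 0.12 with all arrays (adjusted p = 0.215). Only without chow 1 was this probe set called, at 1.26-fold (0.33 ± 0.073, adjusted p = 0.024). The probe set 1378048_at ranged from 9.02 on chow 1 to 9.71 on chow 3, against 9.31 to 9.62 under powder, and was not called (0.0066 ± 0.14, adjusted p = 0.975; 0.16 ± 0.078 and adjusted p = 0.167 without chow 1).

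The difference between probe sets of the same gene on the same array leaves out any shift that both share. For Tcf7l2, 1377156_at minus 1394497_at was 2.67, 2.40, 2.67 and 2.72 on chow arrays 1 to 4, against 3.13, 3.17, 3.06, 3.01 and 3.04 on powder arrays 1 to 5. Chow 1 then fell among the other chow arrays, and no chow value reached a powder value. The diet difference was -0.47, with a two-sided exact permutation p = 0.0159, the smallest that 4 against 5 arrays allow, and 0.0222 after adjustment over the 7 pairs compared. For 1379815_at minus 1394497_at it was -0.50, with the same permutation p. The pairs 1377156_at minus 1378048_at (-0.27) and 1378048_at minus 1379815_at (0.30) also separated the diets. The pair that moved alike, 1377156_at minus 1379815_at, differed by 0.04 (exact permutation p = 0.27), and 1378048_at minus 1394497_at by -0.20 (exact permutation p = 0.0952, adjusted p = 0.111). The 6 Tcf7l2 pairs share 4 probe sets and are not independent.

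Lef1, the other TCF/LEF gene, also had probe sets that changed unequally. The first, 1383785_at, was at 9.44, 10.10, 10.19 and 9.99 under chow, against 10.21, 10.35, 10.14, 10.06 and 10.25 under powder. The second, 1370138_at, was at 8.43, 9.03, 9.16 and 8.92 under chow, against 9.08, 9.09, 8.84, 8.76 and 9.04 under powder. Chow 1 was the lowest array on both and the rest overlapped, and neither was called (-0.27 ± 0.15, adjusted p = 0.193, and -0.08 ± 0.15, adjusted p = 0.705). Without chow 1 they were at -0.11 ± 0.076 (adjusted p = 0.298) and 0.07 ± 0.10 (adjusted p = 0.604). Their difference on the same array, 1370138_at minus 1383785_at, was -1.04 ± 0.032 (SD, n = 4) in chow rats and -1.24 ± 0.073 (SD, n = 5) in powder rats, with no overlap (0.20, exact permutation p = 0.0159, adjusted p = 0.0222). Endothelial genes, which share Lef1, averaged 8.08 to 8.30 on the chow arrays, against 8.36 to 8.47 on the powder arrays (5 varying probe sets of 5 of 9 genes), and their part in Lef1 was not tested. In all, 5 of the 7 pairs of Tcf7l2 and Lef1 separated the diets completely. Among the 636 pairs of varying probe sets that share 1 gene anywhere in the table, 47.5% did so. The deposited table does not say which transcript each probe set reads, so the disagreement was not traced to a transcript.

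**Figure D3:**
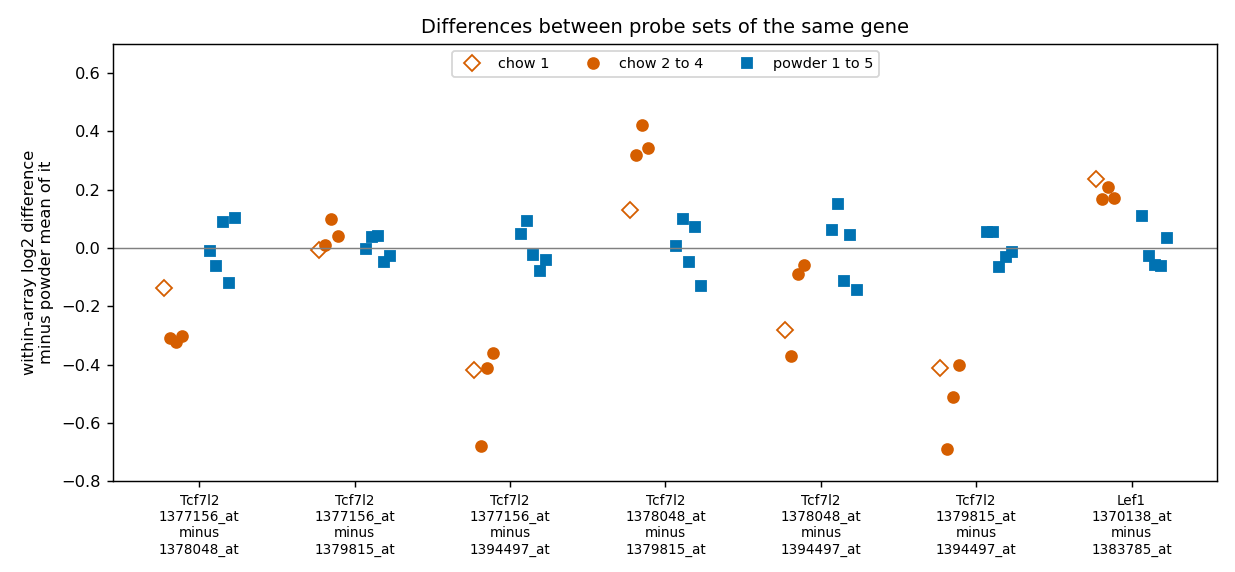
Within-array log2 difference between probe sets of the same gene, minus its powder mean (vertical axis), for 6 pairs of Tcf7l2 and 1 pair of Lef1 (horizontal axis), 1 symbol per array, chow left of powder. Chow and powder symbols do not overlap in 5 of the 7 pairs, and chow 1, the open diamond, lies on the same side as the other chow arrays in those 5.

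Rora and Zic1 lay above their powder means on chow 2 to 4. Rora (1379397_at) was at 9.33, 9.92, 9.91 and 9.62 on chow arrays 1 to 4, against 9.43, 9.47, 9.46, 9.48 and 9.54 on powder arrays 1 to 5. Chow 1 was below all the powder arrays and chow 2 to 4 above all of them. With all arrays Rora was not called (0.22 ± 0.12, adjusted p = 0.187). Only without chow 1, an array singled out from these same values, was it called, at 1.27-fold (0.34 ± 0.074, adjusted p = 0.0232). Zic1 (1369524_at) was at 7.68, 8.16, 8.26 and 7.91 under chow, against 7.77, 7.74, 7.77, 7.91 and 7.65 under powder. Chow 2 and chow 3 stood above every powder array, chow 4 tied with powder 4 at this precision, and chow 1 was second lowest of the 9. Zic1 was not called with all arrays (0.23 ± 0.12, adjusted p = 0.163) and was called, at 1.26-fold, only without chow 1 (0.34 ± 0.091, adjusted p = 0.0392). Zic1 is also a gene of meninges. The 12 varying probe sets of meningeal fibroblast genes (7 of 8 genes) averaged 7.24, 7.63, 7.17 and 7.17 on chow arrays 1 to 4, against 7.21 to 8.24 on the powder arrays, and their part in Zic1 was not tested.

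Gbx2 and Prkcd overlapped between the diets throughout. Gbx2 (1378734_at) ranged from 7.88 on chow 1 to 8.40 on chow 3, against 8.21 to 8.46 under powder (-0.17 ± 0.11, adjusted p = 0.245; -0.07 ± 0.082 without chow 1, adjusted p = 0.52). Prkcd (1387114_at) ranged from 10.90 on chow 1 to 11.61 on chow 3, against 11.40 to 11.68 under powder (-0.24 ± 0.14, adjusted p = 0.216; -0.10 ± 0.089 without chow 1, adjusted p = 0.423).

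**Figure D4:**
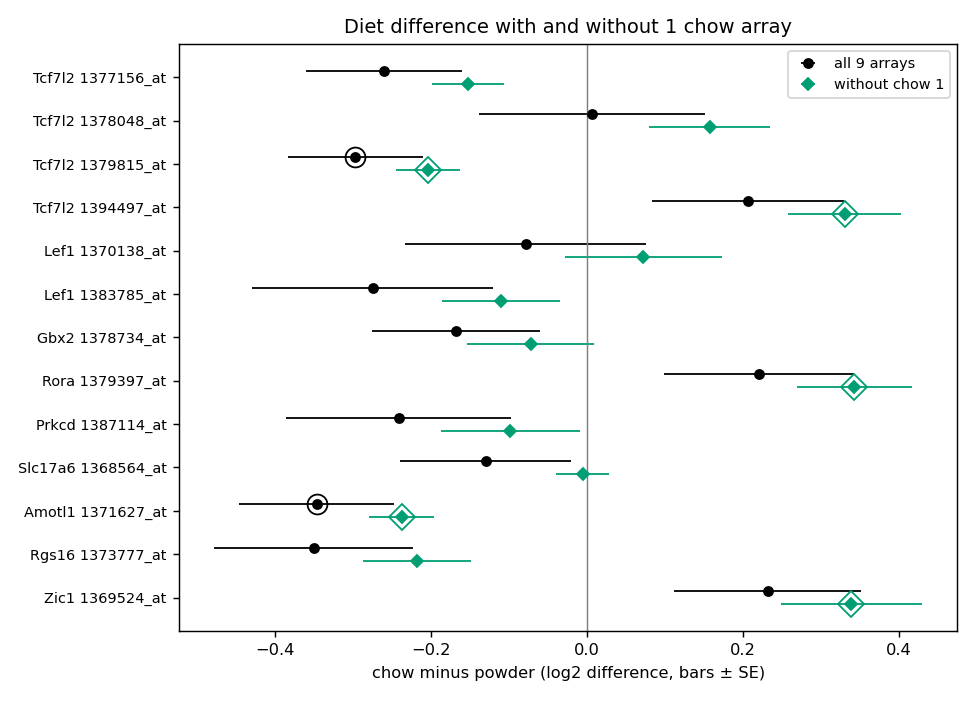
Chow minus powder in log2 units (horizontal axis, bars are the SE from limma) for the 13 probe sets (rows), with all 9 arrays as black circles and without chow 1 as green diamonds. Outlined symbols passed an adjusted p under 0.05: 2 with all arrays, both lower, and 5 without chow 1, of which 3 were higher.

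The 3' minus 5' signal of the beta-actin control probe sets, a sign of RNA or labelling quality, was 1.44 to 1.58 on the chow arrays, against 1.55 to 1.70 on the powder arrays. Only chow 2 (1.58) lay above any powder array, powder 4 (1.55), so this value and diet can hardly be told apart. With that value as a covariate, Amotl1 was at -0.44 (adjusted p = 0.135) and Tcf7l2 1379815_at at -0.29 (adjusted p = 0.234), and neither was called. Over all rat probe sets, limma calls in that fit were 567 higher and 862 lower, beside 5558 and 5195 without the covariate. The part of RNA quality was not tested further.

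Likeness between probe sets was measured by the correlation of deviations from each diet mean, pooled over both diets. Over the 78 pairs of the 13 probe sets it had a median of 0.87 (0.63 to 0.99, 9 arrays). Without chow 1 the median was 0.43 (-0.26 to 0.96, 8 arrays), and 3 of the 78 correlations were then negative. The highest without chow 1 was between Lef1 1370138_at and Prkcd. By the same measure, the genes most like each relay gene over the 9 arrays included Kcna1, a potassium channel, and Sh3d19 for Lef1 (r = 0.99 for both; 0.97 and 0.99 without chow 1). They included Ptpn3, a tyrosine phosphatase that is also in the list of other relay neuron genes, and 6430548M08Rikl for Prkcd (r = 0.99 for both; 0.96 and 0.98 without chow 1), and Ildr2 and Chrna4, a nicotinic receptor subunit, for Rgs16 (0.99 and 0.98; 0.95 and 0.92). For Rora they were Kcnip4, a partner of Kv4 potassium channels, and the chaperone Hsph1 (0.99 and 0.98; 0.97 and 0.93), and for Zic1 Vash2 and Mgst3 (0.98 and 0.97; 0.96 and 0.94). For Tcf7l2, through its probe set of widest span, 1378048_at, alone, they were MAST1, a kinase, and Iqsec1 (0.98 for both; 0.92 and 0.89), for Amotl1 Tafa4 and Dpysl5 (0.99 and 0.97; 0.92 and 0.79), for Slc17a6 Map4, a microtubule protein, and Dffa (0.99 for both; 0.88 and 0.82), and for Gbx2 Sra1 and Mif (0.96 for both; 0.91 and 0.92). These are descriptions of 9 arrays that share chow 1, and carry no test.

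Around the relay genes, 4 further lists were counted. Among other thalamic transcription factors, 22 varying probe sets of 14 genes gave 6 lower and 2 higher (median -0.18, and -0.12 without chow 1), against the 38.8% and 16.1% of all such probe sets. Prox1, a homeobox factor, was at 9.44 ± 0.15 in chow rats (SD, n = 4) and 9.79 ± 0.057 in powder rats (SD, n = 5; 1376672_at, -0.35 ± 0.071, adjusted p = 0.011). Zfhx3, a large homeobox and zinc finger factor, was at -0.36 (1382936_at, adjusted p = 0.0191) and -0.27 (1374868_at, adjusted p = 0.033), with another probe set at -0.21 that was not called (1377961_at, adjusted p = 0.0587), and Esrrg, an orphan nuclear receptor, at -0.20 (1394577_at, adjusted p = 0.0311). Etv1, an ETS factor, was at -0.35 (1397015_at, adjusted p = 0.0389). Its 3 other varying probe sets were at -0.17, -0.24 and -0.15 and were not called (1382593_at, 1392477_at and 1391241_at, adjusted p = 0.0708, 0.134 and 0.236). Sox2, a progenitor factor that is retained in thalamic neurons and glia, was higher on both of its called probe sets (1381874_at at 0.17 and 1375153_at at 0.31, adjusted p = 0.034 and 0.0347). Without chow 1 the calls of Esrrg, Etv1 and Sox2 1381874_at were lost (adjusted p = 0.0501, 0.0916 and 0.08).

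In the TCF/LEF family and nuclear Wnt pathway, 10 varying probe sets of 7 genes gave 4 higher and 3 lower (median 0.08), where 16.1% of all varying probe sets were higher and 38.8% lower. Lrp6, a Wnt co-receptor, rose by 0.28 (1376725_at, ± 0.035, adjusted p = 0.00297), and Apc, a scaffold of the complex that degrades beta-catenin, by 0.40 (1379840_at, ± 0.077, adjusted p = 0.00949). Tle4, a co-repressor that binds TCF factors, was at 0.26 on 1 probe set (1387495_at, adjusted p = 0.0383) and at -0.05 on another (1376869_at, adjusted p = 0.563). Ctnnb1, the gene of beta-catenin, was called in both directions (1373470_at at -0.05 and 1373067_at at 0.15, adjusted p = 0.0417 and 0.0464), and Nkd1, a Wnt inhibitor, was lower on both probe sets (1382726_at at -0.03 and 1375959_at at -0.25, adjusted p = 0.037 and 0.0425). Without chow 1 the list had 4 higher and 0 lower, beside 12.9% and 35.2% of all varying probe sets, and the calls of Ctnnb1 and Nkd1 were lost.

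Paralogs of the 9 genes gave 8 higher and 1 lower among 20 varying probe sets of 14 genes (median 0.09), beside 16.1% and 38.8% of all varying probe sets. Rgs17, an RGS protein of the RZ class, was higher on 4 probe sets, with the largest difference at 0.37 (1398483_at, ± 0.052, adjusted p = 0.00404) and the others at 0.15 (1394280_at), 0.07 (1391075_at) and 0.09 (1394600_at). Rgs4, at 0.35 (1368506_at, adjusted p = 0.0187), had a second probe set at -0.07 that was not called (1368505_at, adjusted p = 0.545), and Rgs2 was at 0.29 (1368144_at, adjusted p = 0.0423, and 0.0548 without chow 1). Zic2 was at 0.13 (1380502_at, adjusted p = 0.00813) and Prkce, protein kinase C epsilon, at 0.23 (1374593_at, adjusted p = 0.0151). The list of partners of Rgs16 and Prkcd signalling also held YAP and junction genes, which go with Amotl1 instead, such as Yap1, Lats1 and Magi1. Over that whole mixed list, 14 varying probe sets of 12 genes gave 5 higher and 1 lower (median 0.03), beside the same 16.1% and 38.8%. The G protein alpha subunit genes on which RGS proteins act were among them: Gnao1 at 0.37 (1368879_a_at), Gnai1 at 0.31 (1387505_at), Gnaq at 0.41 (1370091_at) and Gnai2 at 0.35 (1367844_at), with adjusted p from 0.00468 to 0.0101. Dgkz, which removes the diacylglycerol that activates protein kinase C, was at -0.18 (1367745_at, adjusted p = 0.0148). These 4 alpha subunit genes and Dgkz were also called without chow 1 (adjusted p from 0.0138 to 0.0387).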

How the data were processed

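Thalamic RNA of 9 samples was measured on 1-colour arrays. Per the labels' protocols, TRIzol-extracted RNA was cleaned with an RNeasy kit, and 100 ng of it was turned into biotin-labelled cRNA. The authors deposited 1 log2 value per probe set and array. Their software, background correction, summarisation and normalization were not given in the sources used here. The log2 scale was read from the range, 5.37 to 14.0, and any centring is unknown. Array medians were 7.39 to 7.40 and correlations between arrays 0.991 to 0.999, and no further normalization was applied. The number of arrays limits the precision.

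Groups came from the sample titles. The platform annotation gave the gene names (20826 with 1 symbol, 436 with several, 9780 with none listed), and only those with 1 symbol were named. No array build is named, and promoter windows are from RefSeq, GRCr8. After 57 control probe sets were left out, chow was compared with powder by limma 3.58.1 (lmFit, eBayes, no covariates) in R 4.3.3 over 31042 rat probe sets, with Benjamini-Hochberg adjustment and calls under 0.05. Differences are chow minus powder, ± SE. "Varying" probe sets span at least 0.01 log2 units. The fit was tested on simulated data. Within-array differences used two-sided exact permutation tests in scipy 1.17.1 and were chosen after seeing the data.

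The genes and lists were chosen with earlier results of these data known. Named list genes were the 5 of smallest p among called varying probe sets (the 2 of smallest p where fewer than 2 were called). In marker lists they were taken from the 2 genes of smallest p, and not every such gene is named. Patterns most alike were the 2 highest Pearson r per gene, using its probe set of widest span. Same-numbered chow and powder samples did not deviate together (r = -0.31, 0.19, -0.34 and -0.16 for numbers 1 to 4), so the samples were not treated as pairs. Alternatives were a trended robust variance, other scalings, filters, array weights, a replicate block, the beta-actin covariate, each array left out, 1 value per gene and an adjusted p under 0.1.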

Additional observations from a re-analysis of the deposited data

Results flagged for a closer look

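For Tcf7l2 probe set 1379815_at, chow 1 (7.576 log2 units) lay farther below the other 3 chow arrays than Dixon's limit for 4 samples allows: its gap to the nearest was 0.846 of the group's range. It was the 1 case among 34 groups examined (17 probe sets, each in the chow and the powder group), where chance gives about 1 in 20. Chow 1 was the lowest chow array for all 13 varying probe sets, although the other 12 stayed under the limit.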

How the results depend on the processing

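With the 9 arrays left out in turn, the 17 relay probe sets had 0 to 3 higher and 0 to 3 lower calls, the 5 companion lists together 26 to 37 higher and 9 to 26 lower (46 and 21 with all arrays), and all rat probe sets 3661 to 4879 higher (5558) and 3906 to 4843 lower (5195). Higher and lower calls over all probe sets were 15610 and 1854 after quantile normalization, 27206 and 2141 with array medians subtracted, 865 and 2019 with compressed probe sets left out, and 567 and 862 with the beta-actin covariate. The companion lists then had 105 and 10, 143 and 18, 23 and 15, and 4 and 0. The relay probe sets had 2 and 2, 4 and 4, 0 and 4, and 0 and 0 (1 lower at unadjusted p under 0.05 in the last). The 15610 and 27206 higher calls exceed the 4849 probe sets that varied, so most fell on compressed ones. Array medians ran from 7.3907 to 7.4019, while the median span of compressed probe sets was 0.00047. Higher relay calls that appear only after rescaling are therefore not read as rises in RNA. With the replicate block, which uses label numbers that did not pair the samples, the calls were 1 higher and 18 lower over all probe sets, 0 and 0 in the companion lists and 0 and 0 among the relay probe sets (1 lower unadjusted). At an adjusted p under 0.1, 0 relay probe sets were higher and 4 lower, and 60 companion probe sets were higher and 35 lower. Over all rat probe sets, 7974 were then higher and 6763 lower. The median over all 5 Tcf7l2 probe sets on each array gave 0.105 for the gene, which is not a value of 1377156_at. That median fell on the flat probe set 1392592_at on every powder array. On chow 1 it fell on 1378048_at and on the other chow arrays on 1394497_at. The 0.105 thus sets different probe sets against each other and is not read as a change of the gene. Probe set 1377156_at itself stayed at -0.321 to -0.153 with 1 array left out. Signs turned for Tcf7l2 1378048_at (-0.016 with the replicate block, -0.0924 with the beta-actin covariate, -0.0718 to 0.157 with 1 array left out) and 1392592_at (0.0304 after quantile normalization, 0.00643 with medians subtracted). They also turned for Lef1 1370138_at (-0.17 to 0.0723 with 1 array left out) and Gbx2 1394337_at (-6.61e-06 with the beta-actin covariate, -1.23e-05 to 0.000131 with 1 array left out). The causes were not tested, except that both rescalings moved 1392592_at by more than its span of 0.00068. The 5 probe set pairs that separated the diets kept their direction after quantile normalization and with any 1 array left out. Without any 1 chow array, their adjusted exact permutation p was 0.05, the smallest that 3 against 5 arrays gave.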

Other observations

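Among marker lists not described above, endothelial genes were lower under chow on 4 of 5 varying probe sets and higher on 0 (limma), against 38.8% and 16.1% of all such probe sets. Abcb1a, a drug efflux pump of the blood-brain barrier, was at -0.44 ± 0.080 (1370464_at, adjusted p = 0.00821), and Slco1a4, an organic anion carrier, at -0.15 ± 0.036 (1387093_at, adjusted p = 0.0197). Without chow 1 they were at -0.38 and -0.14 (adjusted p = 0.0146 and 0.0487). Astrocyte genes had 2 of 6 varying probe sets higher and 0 lower. The water channel gene Aqp4 was at 0.53 ± 0.086 (1368981_at, adjusted p = 0.00601) with a second probe set at -0.14 (1372190_at, adjusted p = 0.0546). The glutamate transporter gene Slc1a3 was at 0.53 ± 0.13 (1388064_a_at, adjusted p = 0.0211) with a second at 0.02 (1368565_at, adjusted p = 0.874). Oligodendrocyte genes, of interest because these cells also use Tcf7l2, averaged 11.57 to 11.76 on the chow arrays, against 11.59 to 11.81 on the powder arrays over 12 varying probe sets. Of these, 1 was lower under chow, Mobp 1370434_a_at (-0.13, adjusted p = 0.0424, and 0.0885 without chow 1). Its other varying probe sets were at -0.13 (1368263_a_at, adjusted p = 0.222) and 0.11 (1370500_a_at, adjusted p = 0.238). Pericyte and smooth muscle genes had 1 of 3 varying probe sets lower, Abcc9, a potassium channel subunit (1374171_at, -0.28 ± 0.086, adjusted p = 0.0392). Rgs5, of the same list, went the other way and was not called (1369957_at, 0.22 ± 0.076, adjusted p = 0.0592). The cortical, cerebellar, oligodendrocyte precursor, microglial, choroid plexus, meningeal and blood lists had 0 called among varying probe sets (limma, all arrays), and at unadjusted p under 0.05 they had 1, a cortical one. Of all varying probe sets, 54.9% were called, and at least that share passed the unadjusted limit.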
